A study of Mus musculus with 20 samples.

Results

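The transferases of conjugation are the enzymes that join glutathione, a sugar acid or sulfate to small molecules. The members described here are 67 genes of the 55822 in the count table, chosen by symbol: 25 glutathione transferase genes (Gsta, Gstm, Gstp, Gstt, Gsto, Gstk, Gstz and Mgst), 21 glucuronosyltransferase genes (Ugt1, Ugt2 and Ugt3) and 21 sulfotransferase genes (Sult). The 8 rows whose symbols mark pseudogenes were left out. The rule reads gene symbols only.

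Poly(A) RNA of whole kidney was sequenced in male C57BL/6J mice, an inbred strain, aged 8 weeks. The comparison is between 5 animals that received phosphate-buffered saline (PBS, the control) and 5 that received puberulic acid at 1 mg per day, a tropolone compound made by some moulds. All animals were dosed on 6 days and killed on day 7, after a day without dosing. The labels do not tell which animals were dosed by mouth and which by injection. Further groups, given Choleste-Help (a dietary supplement) from a normal or toxic batch at 1000 mg per day, are not analysed here because the names of their 10 data columns do not show which lot each holds. The labels name no genetic change in any group, and whole kidney mixes every cell type of the organ.

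Glutathione transferases attach the tripeptide glutathione to electrophiles and some also reduce peroxides or isomerise metabolic intermediates. Glucuronosyltransferases sit in the membrane of the endoplasmic reticulum and transfer a sugar, mostly glucuronic acid, to lipophilic acceptors such as bilirubin, steroids and drugs. Sulfotransferases are cytosolic and move sulfate from the donor PAPS to phenols, catecholamines and steroids. In the kidney these enzymes are best known from the proximal tubule, where the conjugates are also exported into urine or processed further.

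Total estimated counts per library ran from 18409877 to 24705587. Levels are given as CPM, counts scaled to the size of the library, after correcting that size by its trimmed mean of M-values (TMM) factor, which was 0.827 to 0.848 for controls and 1.17 to 1.26 for treated animals. All 12 proximal tubule marker genes were called lower, where 31.1% of all tested genes were called lower and 34.2% higher. The summed level of these markers was 39227 to 50853 CPM in controls against 5970 to 8005 CPM in treated animals. Of the loop, distal and collecting duct markers 8 of 10 were lower and none higher, of the podocyte and endothelial markers 2 of 8 were lower, of the 11 leukocyte markers 5 of 8 tested were higher, of the stromal markers 5 of 6 were higher and of the injury markers 5 of 5 were higher. Of the 7 liver, adipose and adrenal markers 4 were tested, with 2 higher and 1 lower. The sum of the 7 was at most 82.3 CPM in a control and 164.4 CPM in a puberulic acid library. Puberulic acid replicate 3 stood apart, with Adipoq at 20.3, Plin1 at 16.9, Cyp11b1 at 4.79 and Star at 30 CPM. The highest levels in the other treated animals were 0.57, 0.321, 0.0815 and 3.12 CPM. With libraries scaled to total counts instead, the proximal tubule and injury counts were the same, the loop, distal and collecting duct markers had 4 lower and Umod higher (0.57, adjusted p = 0.0119), and no podocyte or endothelial marker was called. The leukocyte markers then had 7 of 8 higher, the stromal markers 6 of 6, and the liver, adipose and adrenal markers 3 higher and 0 lower. The part of these shifts in the results below was not tested, and in whole tissue fewer cells of a type and less RNA per cell cannot be told apart. Puberulic acid replicate 1 stands apart on the control side of its group, with a proximal tubule marker sum of 8005 CPM against 5970 to 6407 CPM in the other 4 animals.

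The summed levels of the classes show where most of the transcript lay. The summed level of the 21 glucuronosyltransferase genes was 3635 ± 538.1 CPM in controls against 736 ± 306 CPM in treated animals (SD, n = 5 per group). The 21 sulfotransferase genes together had 996.8 ± 192.9 CPM in controls against 337 ± 87.5 CPM in treated animals (SD, n = 5 per group). Sult1d1 alone made up 915.5 and 294.4 CPM of these group means, so the sulfotransferase sum mainly follows that gene. The 25 glutathione transferase genes together had 2622 ± 85.8 and 1893 ± 179.7 CPM (SD, n = 5 per group).

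The fall of the glutathione transferase sum depended on the scaling. As a share of all counts, with no TMM factor, that class had 0.22% ± 0.00853 in controls and 0.225% ± 0.0165 with puberulic acid (SD, n = 5 per group), and the ranges overlapped. The glucuronosyltransferase share was 0.304% ± 0.0435 in controls and 0.0875% ± 0.0356 with puberulic acid (SD, n = 5 per group), and the sulfotransferase share was 0.0834% ± 0.0154 and 0.04% ± 0.00979 (SD, n = 5 per group). For these 2 classes no treated animal overlapped a control in its share.

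Of the 67 members, 44 passed the filter on low counts and were tested with edgeR's quasi-likelihood test, adjusted by Benjamini-Hochberg over all 16266 genes tested. A gene was called when its adjusted p was under 0.05. Among the tested members 11 were called higher and 23 lower, or 25% and 52.3%, where 34.2% of all tested genes were called higher, 31.1% lower and 65.3% in either direction. Of the 11 called higher, 7 (Gsta1, Gstp3, Ugt1a9, Ugt2b35, Sult1e1, Sult2b1 and Sult4a1) passed the filter through the treated group alone, and of the 23 called lower Ugt1a6b passed through the controls alone. These 8 could enter the test only where they were high, so their calls are descriptions, and their p-values are not given. The SEs and intervals printed for some of them are descriptions too. For 26 tested members no treated animal fell inside the range of the controls' CPM or the reverse, or 59.1%, against 50.1% of all tested genes. Each class held members called in both directions, but the higher sulfotransferase calls were all among those that passed through the treated group alone. Of the tested members, 4 of 22 glutathione transferases were called higher and 13 lower, 4 of 14 glucuronosyltransferases higher and 7 lower, and 3 of 8 sulfotransferases higher and 3 lower, with median log2 fold changes of -0.49, -1.27 and 0.29. With total counts the glutathione transferases had 8 higher and 7 lower with a median of 0.02, the glucuronosyltransferases 5 and 7 with a median of -0.76, and the sulfotransferases 4 and 3 with a median of 0.79. At least 2-fold changes were called higher for 9 members and lower for 14, where 18.7% and 13.6% of all tested genes were. The median log2 fold change (log2FC) was -0.49 over the tested members and 0.05 over all tested genes. Calls that were higher made up 32.4% of the members' calls with TMM scaling and 50% when libraries were scaled to total counts, where 52.4% and 78.4% of the calls over all tested genes were higher. Scaling to total counts moved the median of all tested genes to 0.56. All 11 higher calls held with total counts, but that scaling moved log2 fold changes upward and so could hardly put them at risk. Of the 23 lower calls 17 held. The 6 that were lost were Gsta3, Gsta4, Gstm4, Gsto2, Gstt1 and Mgst3.

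**Figure D1:**
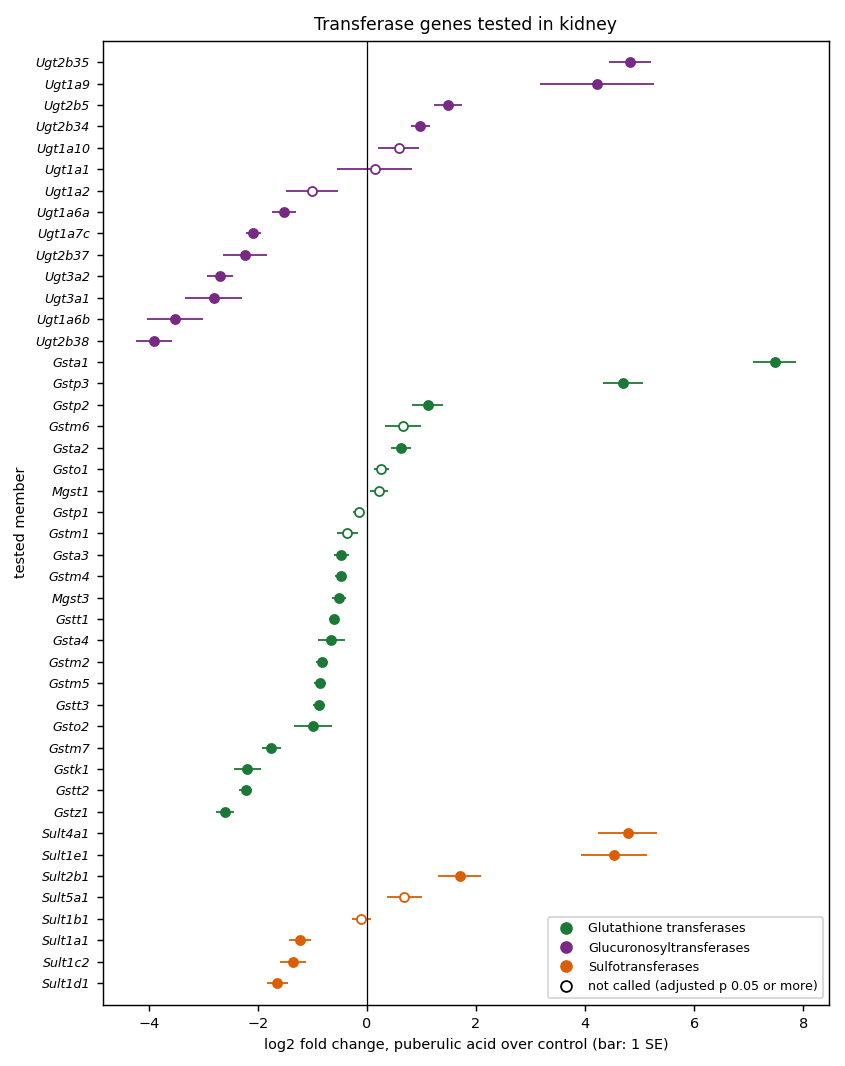
Log2 fold change of each tested member, puberulic acid over control, on the horizontal axis, with bars of 1 SE from the edgeR fit (n = 5 per group). Filled points are called and open points are not. The points run from -3.91 for Ugt2b38 to 7.47 for Gsta1.

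The alpha class of glutathione transferases (Gsta) held the member with the largest rise. Gsta1, a transferase and peroxidase of the alpha class, was at 0.399, 0.264, 0.255, 0 and 0.649 CPM in control replicates 1 to 5 and at 34.8, 73.2, 52.7, 73.2 and 48.1 CPM in puberulic acid replicates 1 to 5. It was nearly silent in every control and present in every treated animal. The control levels rest on 0 to 10 counts per library, and the ratio of the summed scaled counts was 178.5 (95% exact interval 121.7 to 273.4, counting error only). The fitted log2FC was 7.47 ± 0.40 (SE). Of the 31-base stretches in the Gsta1 transcripts of GENCODE M21, 92.2% also occur in transcripts of other genes, 87.8% in those of Gm3776, so how reads were divided between these genes is uncertain. Gm3776, which is no member by its symbol, moved in the same way, from 0 to 0.519 CPM in controls to 26.5 to 52.9 CPM with puberulic acid.

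Gsta2, the close relative of Gsta1, was already abundant in controls, at 172.4, 254.9, 214.9, 172.5 and 345.6 CPM. With puberulic acid it was at 423.4, 377.8, 326.9, 347.4 and 310.7 CPM. Control replicate 5 lay inside the range of the treated group, and the log2FC was 0.62 ± 0.18 (SE, adjusted p = 0.0103). Gsta3 went from 97.8 ± 14.4 to 70.5 ± 14.3 CPM (SD, n = 5 per group) with a log2FC of -0.47, which became 0.03 with total counts and was then not called. Gsta4, known for conjugating the lipid peroxidation product 4-hydroxynonenal, went from 36.3 ± 13.3 to 23.2 ± 6.35 CPM (SD, n = 5 per group). Its call (log2FC -0.65, adjusted p = 0.0303) was lost without control replicate 5, which had 59.9 CPM (-0.40, adjusted p = 0.071).

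The mu class (Gstm) had no member called higher and 4 of 6 tested members called lower. Gstm1, an abundant cytosolic mu transferase, was at 656.1, 598.2, 765.2, 697.8 and 629.9 CPM in controls against 312.9, 655.1, 636.4, 608.8 and 398.3 CPM in treated animals. The treated animals were unequal: replicates 1 and 5 were below all controls and the other 3 were within the control range. Its log2FC of -0.36 ± 0.19 (SE, adjusted p = 0.117) did not pass, and it was 0.15 with total counts. Gstm5 fell from 113.4 ± 12.8 to 62.5 ± 7.76 CPM and Gstm2 from 48.4 ± 6.05 to 27.3 ± 3.63 CPM (SD, n = 5 per group), with no overlap for either gene. Gstm7 had the largest fall of the class, at a log2FC of -1.75 ± 0.18 (SE), and Gstm4 was at -0.48, or 0.03 with total counts. Gstm6, at 1.52 CPM in controls against 2.4 CPM in treated animals on average, did not pass (adjusted p = 0.0979) but did so without puberulic acid replicate 1 (log2FC 0.85, adjusted p = 0.00843).

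In the pi class (Gstp) the main transcript was not called and the minor ones were higher. Gstp1, the pi transferase that most tissues express, was at 252.7 to 298.9 CPM in controls against 212.7 to 289.4 CPM in treated animals, a log2FC of -0.15 (adjusted p = 0.198) that was 0.36 and called higher with total counts. Gstp3 was at 0.171, 0.105, 0.127, 0.125 and 0 CPM in controls against 3.23, 3.28, 2.63, 2.57 and 2.86 CPM in treated animals, with no overlap. From 9 summed control counts and 378 summed treated counts the scaled ratio was 27.1 (95% exact interval 14.1 to 59.7, counting error only). The fitted log2FC was 4.69 ± 0.37 (SE). Gstp2 was called higher at a log2FC of 1.11 ± 0.29 (SE), from 5.22 ± 1.93 to 11.3 ± 3.75 CPM (SD, n = 5 per group). It shares 50.8% of its 31-base stretches with Gstp1, so its level is uncertain, whereas Gstp3 shares 0.736%.

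The theta, zeta, kappa and omega classes hold enzymes with separate metabolic duties, and several of them fell. Gstz1 is maleylacetoacetate isomerase, a step of tyrosine breakdown. It was at 372.6, 356.1, 343.8, 360.1 and 313.5 CPM in controls against 87.1, 48.4, 51.8, 52 and 49.5 CPM in treated animals, so that even the highest treated animal, replicate 1, was far under every control. The log2FC was -2.60 ± 0.16 (SE, adjusted p = 1.16e-07), or 6.04-fold lower.

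Gstk1, the kappa transferase of mitochondria and peroxisomes, was at 66.4, 63.5, 79.9, 71.5 and 77.7 CPM in controls against 29.5, 12.5, 11.7, 11.7 and 13.2 CPM in treated animals. The groups did not overlap, and the log2FC was -2.19 ± 0.25 (SE, adjusted p = 1.06e-05). Gstt2, a theta transferase, was at 216, 272.5, 232.9, 213.5 and 263.2 CPM in controls against 54.5, 60.3, 51.5, 48.6 and 42.2 CPM in treated animals. Here replicate 1 lay among the other treated animals, and the log2FC was -2.22 ± 0.12 (SE, adjusted p = 3.03e-08). The other tested theta genes, Gstt1 and Gstt3, were called lower with log2FC values of -0.61 and -0.88, and Gstt1 was at -0.10 and not called with total counts.

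Gsto1, an omega transferase that reduces dehydroascorbate, was at 56.4 ± 14.3 CPM in controls against 67.6 ± 4.75 CPM in treated animals (SD, n = 5 per group). It was not called (log2FC 0.26, adjusted p = 0.133), although it was without control replicate 5 (0.41, adjusted p = 0.00276). Gsto2 was near 1 CPM, and its log2FC of -0.99 (adjusted p = 0.0276) was not called without control replicate 1 (-0.90, adjusted p = 0.06) nor without any of 4 other animals. The membrane-bound Mgst1 was at 115.5, 63.8, 56.5, 75.4 and 66.9 CPM in controls against 96.9, 93.5, 86.5, 87.3 and 77.2 CPM in treated animals. Control replicate 1 was above all treated animals and the other 4 controls were below them, and the log2FC of 0.22 (adjusted p = 0.264) became 0.42 (adjusted p = 0.00382) without that control. Mgst3 was called lower, from 120 ± 9.82 to 84.4 ± 18 CPM (SD, n = 5 per group), with a log2FC of -0.51 that was not called with total counts (adjusted p = 0.99).

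**Figure D2:**
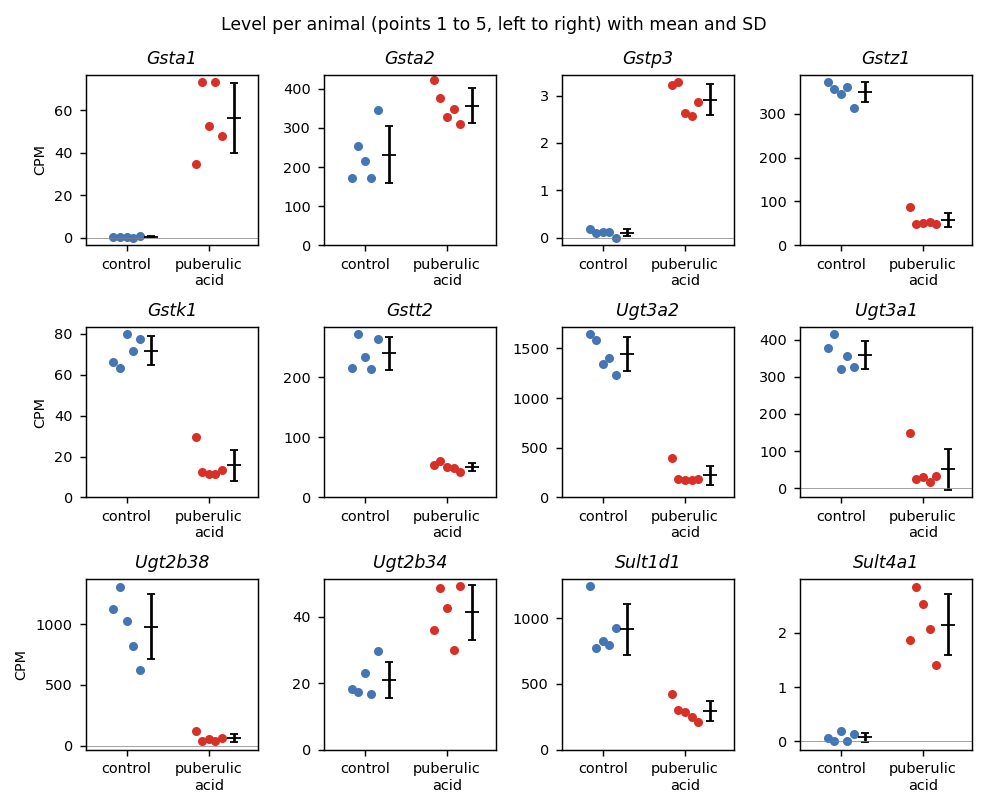
Level in CPM (vertical axis, from 0) of 12 members in each animal, with the mean and SD of each group of 5. Gsta1 is under 0.7 CPM in every control and Gstz1, Ugt3a2 and Ugt2b38 are lower in every treated animal than in any control; puberulic acid replicate 1 (leftmost red point) is the highest treated animal for Gstz1, Gstk1, Ugt3a1, Ugt3a2, Ugt2b38 and Sult1d1.

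Among glucuronosyltransferases 4 of 14 tested members were called higher and 7 lower. The Ugt3 genes encode relatives that use sugars other than glucuronic acid. Ugt3a2 was at 1642, 1587, 1341, 1404 and 1229 CPM in controls against 399.4, 182.1, 172.5, 171.8 and 186.9 CPM in treated animals. All treated animals were below all controls, replicate 1 by the least, and the log2FC was -2.69 ± 0.24 (SE, adjusted p = 1.65e-06). Ugt3a1 was at 375.9, 413.5, 319.9, 354.5 and 327.3 CPM in controls against 148.8, 24.5, 30.3, 18.1 and 33.7 CPM in treated animals. Replicate 1 held several times the level of the other treated animals, and the log2FC of -2.81 ± 0.52 (SE, adjusted p = 0.000495) was -3.77 without it. The median of both genes was -2.75, and -3.40 without replicate 1.

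The Ugt2 family, whose enzymes act on steroids, bile acids and drugs, moved in opposite directions. Ugt2b38 was at 1127, 1307, 1026, 817.1 and 621.2 CPM in controls against 121.1, 41.2, 56.3, 41.9 and 64.8 CPM in treated animals. It was the largest fall of any tested member, at a log2FC of -3.91 ± 0.33 (SE, adjusted p = 1.04e-06), or 15-fold lower. Ugt2b37 was at 271.6, 135.9, 148.8, 110.3 and 45.6 CPM in controls against 48.2, 21.3, 24.1, 23.9 and 34.4 CPM in treated animals. Its controls varied widely, control replicate 5 was below treated replicate 1, and the log2FC was -2.23 ± 0.40 (SE, adjusted p = 0.000365).

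Other Ugt2b genes rose. Ugt2b34 was at 18.2, 17.4, 22.9, 16.7 and 29.6 CPM in controls against 36, 48.7, 42.7, 29.9 and 49.2 CPM in treated animals, a log2FC of 0.98 ± 0.18 (SE, adjusted p = 0.000545), and the highest control lay just under the lowest treated animal. Ugt2b5 was called higher from 2.16 ± 0.746 to 6.05 ± 1.28 CPM (SD, n = 5 per group). Ugt2b35 had 0 to 2 counts per control library and 38 to 65 per treated library. Its scaled ratio was 31.2 (95% exact interval 13.2 to 97, counting error only). The levels of Ugt2b38, Ugt2b37 and Ugt2b5 are tied to each other by shared sequence: Ugt2b38 shares 52.9% of its 31-base stretches with other genes, 44.1% with Ugt2b5. Ugt2b34 and Ugt2b35 share 2.95% and 4.37% with other genes. The sum of the 7 Ugt2b genes fell from 1145 ± 323.6 to 144.7 ± 44.2 CPM (SD, n = 5 per group), with a log2FC of -2.98 ± 0.25 (SE, adjusted p = 9.65e-07).

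The Ugt1a genes form a single locus in which separate start exons are joined to common end exons, so that their transcripts are alike over most of their length. Between 56.1% (Ugt1a7c) and 96.8% (Ugt1a6a) of the 31-base stretches of these 9 genes occur in other genes. The sum over the locus does not depend on how reads were divided within it. That sum was 677.6, 743.3, 722.1, 646 and 661 CPM in controls against 512.9, 303.1, 258.3, 236.4 and 276.7 CPM in treated animals. Every treated animal was below every control, replicate 1 by the least, and the log2FC of the sum was -1.12 ± 0.19 (SE, adjusted p = 0.000227).

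Within the locus, as far as shared sequence lets reads be divided, the largest share was Ugt1a7c in controls and Ugt1a10 in treated animals on average. The treated animals differed: Ugt1a10 took 64.7% in replicate 1. In replicates 2 and 3 Ugt1a7c still had more, at 40.7% and 43.6% against 40.1% and 34.8% for Ugt1a10. Ugt1a7c took 66.9% ± 8.26 of the Ugt1a counts in controls and 36.5% ± 7.81 with puberulic acid (SD, n = 5 per group), and its level fell from 463.2 ± 75 to 109.4 ± 13.9 CPM (SD, n = 5 per group; log2FC -2.08 ± 0.13, SE). Ugt1a10 took 15.3% ± 6.49 and 45.7% ± 11.6 (SD, n = 5 per group). Its level was 97.4, 76.6, 60.3, 124.9 and 159.5 CPM in controls against 332, 121.5, 90, 97.6 and 132.2 CPM in treated animals, so that only replicate 1 exceeded the controls. The log2FC of 0.58 (adjusted p = 0.189) was 0.06 without that animal, and 1.08 and called with total counts.

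Ugt1a6a and Ugt1a6b, known for simple phenols, were called lower at log2FC values of -1.52 ± 0.22 and -3.52 ± 0.52 (SE). Ugt1a9 was at 0 in 4 controls and at 5.13 CPM in control replicate 5, against 9.13, 22.9, 18.9, 26.3 and 15.5 CPM with puberulic acid. The fitted log2FC was 4.22 ± 1.04 (SE), and with 0 counts in the remaining controls the fitted value without replicate 5 is no measure of size. Ugt1a1, the bilirubin transferase, was at 5.23 ± 4.25 CPM in controls against 5.74 ± 1.28 CPM in treated animals (SD, n = 5 per group) and was not called. Ugt1a2 at a log2FC of -1.01 (adjusted p = 0.0819) passed without control replicate 1 (-1.19, adjusted p = 0.0489) and without puberulic acid replicate 1 (-1.41, adjusted p = 0.0189). Ugt1a8 had 1993 counts in control replicate 3, 45 in control replicate 5 and 0 in the other controls, and it was not tested.

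**Figure D3:**
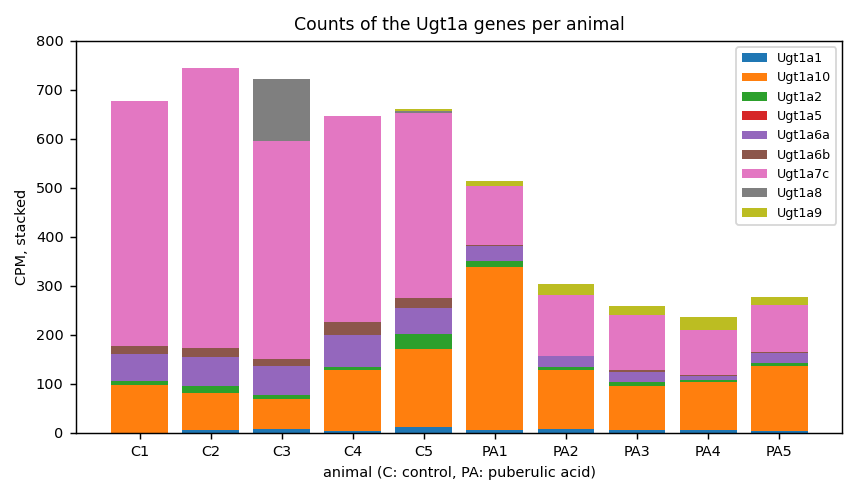
CPM of the 9 Ugt1a genes stacked for each animal (C, control; PA, puberulic acid), with bars that start at 0. The controls reach 646 to 743.3 CPM and the treated animals 236.4 to 512.9 CPM; the orange Ugt1a10 segment is largest in PA1 (332 CPM), and the grey Ugt1a8 segment is seen in control replicate 3.

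Among sulfotransferases 3 of 8 tested members were called higher and 3 lower. All 3 of the higher calls are among those that passed the filter through the treated group alone. Sult1d1, which sulfates catecholamines, was at 1248, 777, 830.8, 795.4 and 926.2 CPM in controls against 420.3, 301.6, 284.7, 251.7 and 213.5 CPM in treated animals. The groups did not overlap, and the log2FC was -1.64 ± 0.19 (SE, adjusted p = 1.24e-05), or 3.11-fold lower. Sult1c2 was at 54.6, 69.3, 55.7, 50.2 and 61.9 CPM in controls against 41.3, 17, 16, 19.9 and 20 CPM in treated animals, where replicate 1 was again nearest to the controls. Its log2FC was -1.35 ± 0.24 (SE), and -1.70 without replicate 1. Sult1a1, a phenol sulfotransferase, fell from 16.6 ± 3.27 to 7.13 ± 1.96 CPM (SD, n = 5 per group).

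Sult4a1, best known from brain, had 1, 0, 3, 0 and 2 counts in the controls and 50, 67, 60, 51 and 44 counts with puberulic acid. The scaled ratio was 29.2 (95% exact interval 13.3 to 80.4, counting error only). The fitted log2FC of 4.78 was 5.41 without control replicate 3, and the mean level with puberulic acid was 2.15 ± 0.566 CPM (SD, n = 5). Sult1e1, the estrogen sulfotransferase, had 3, 0, 0, 0 and 1 counts in the controls and 25, 39, 36, 30 and 27 counts with puberulic acid. Its scaled ratio was 25.3 (95% exact interval 9.69 to 94.1, counting error only). Control replicate 1 holds most of the control counts, and the fitted log2FC of 4.53 was 5.88 without it. Sult2b1, which sulfates cholesterol and other hydroxysteroids, went from 1.16 ± 0.505 to 3.79 ± 1.38 CPM (SD, n = 5 per group; log2FC 1.70 ± 0.39, SE). Treated replicate 1, at 1.48 CPM, lay within the controls. Sult1b1, a thyroid hormone sulfotransferase, had a log2FC of -0.10 (adjusted p = 0.639). Sult5a1 had 0.68 (adjusted p = 0.0825), and was called higher without control replicate 5 (0.91, adjusted p = 0.0301).

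Levels of different genes can be set side by side only per transcript length. Per kilobase of the longest coding transcript in GENCODE M21, the highest control levels among the members were those of Ugt3a2 at 618.5, Gstm1 at 519.3, Ugt2b38 at 518, Sult1d1 at 378.3 and Gstp1 at 343.1 CPM per kilobase. With puberulic acid the highest were Gsta2 at 410.6, Gstm1 at 405.2, Gstp1 at 309.9 and Sult1d1 at 121.6 CPM per kilobase, while Ugt3a2 was at 95.5 and Ugt2b38 at 34.4. Gsta1 went from 0.358 to 64.5 CPM per kilobase. The transferase transcripts of the control kidney were thus headed by a glucuronosyltransferase relative and those of the treated kidney by alpha, mu and pi glutathione transferases. This order is a description of group means (n = 5). Gsta2 was at 266.7 CPM per kilobase in controls, while Gstm1 and Gstp1 were lower with puberulic acid than in controls. Gsta2 and Gstm1 lay close, and puberulic acid replicate 1 had the highest Gsta2 (423.4 CPM) and the lowest Gstm1 (312.9 CPM) of its group. Of the 31-base stretches 58.8% for Gsta2, 57.8% for Gstp1 and 30.4% for Gstm1 occur in other genes, so these levels are uncertain.

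**Figure D4:**
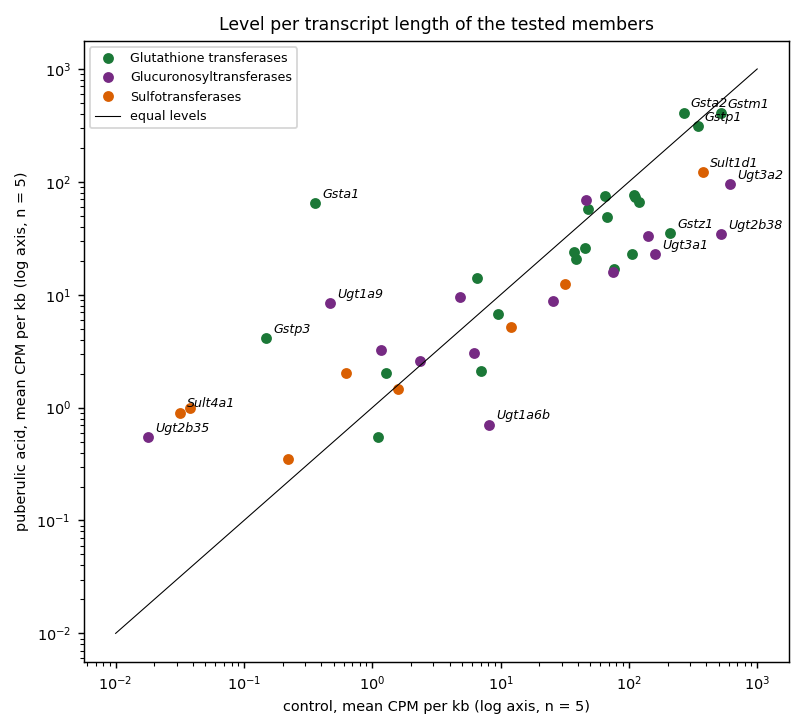
Mean CPM per kilobase of transcript of the tested members in controls (horizontal) and with puberulic acid (vertical), both on log axes, with the line of equal levels. Gsta1 (0.358 and 64.5) lies far above the line and Ugt2b38 (518 and 34.4) far below it, while Gstm1 and Gstp1 lie close to it at the upper right.

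Puberulic acid replicate 1 had the highest level of the 5 treated animals for 17 of the 23 members called lower, and it had the lowest for 3 of the 11 called higher. Without it all 23 lower calls held, and 21 of the 23 falls were larger. All 11 higher calls held too, but 7 of them had passed the filter through the treated group alone and remain descriptions. Counts of calls over the tested members were then 13 higher and 24 lower.

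Promoter windows (250 bases before to 50 after a start) were taken from RefSeq on build GRCm38.p6. Windows were found for 59 of the 67 members, 71 windows in all. The windows below belong to the largest glutathione transferase rise and to the largest glucuronosyltransferase rise and fall, and are printed in lower case. They lie at chr9:78230419-78230718 (plus strand, Gsta1), chr5:87000610-87000909 (plus, Ugt2b35) and chr5:87424154-87424453 (minus, Ugt2b38).
Gsta1: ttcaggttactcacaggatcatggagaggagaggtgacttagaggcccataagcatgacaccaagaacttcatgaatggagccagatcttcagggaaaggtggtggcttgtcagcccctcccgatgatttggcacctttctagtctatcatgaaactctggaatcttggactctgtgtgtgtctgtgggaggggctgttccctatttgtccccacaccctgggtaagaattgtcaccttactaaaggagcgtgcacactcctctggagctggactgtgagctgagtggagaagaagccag
Ugt2b35: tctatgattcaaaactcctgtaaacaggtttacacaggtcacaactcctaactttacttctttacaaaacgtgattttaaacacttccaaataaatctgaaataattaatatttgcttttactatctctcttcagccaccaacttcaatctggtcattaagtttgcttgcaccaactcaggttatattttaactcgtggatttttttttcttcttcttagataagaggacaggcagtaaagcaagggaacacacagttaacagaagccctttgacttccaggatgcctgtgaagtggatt
Ugt2b38: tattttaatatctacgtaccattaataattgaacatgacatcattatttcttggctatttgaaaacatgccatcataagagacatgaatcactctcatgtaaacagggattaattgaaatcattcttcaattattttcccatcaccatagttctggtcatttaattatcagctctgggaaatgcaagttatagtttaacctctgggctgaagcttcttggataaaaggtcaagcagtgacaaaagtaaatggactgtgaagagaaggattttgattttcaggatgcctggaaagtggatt

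Of 13 xenobiotic and tubule regulators 3 were called higher and 8 lower, or 4 and 6 with total counts. The list counts stand beside 34.2% of all tested genes called higher and 31.1% lower. With total counts 78.4% of the calls over all tested genes were higher, against 52.4% with TMM scaling. Hnf4a, a nuclear receptor of the proximal tubule, went from 705.1 ± 44.4 to 170.1 ± 40.1 CPM (SD, n = 5 per group), with a log2FC of -2.05 ± 0.14 (SE). Cebpb and Arnt were called higher at 1.21 and 0.80. Of 17 NRF2 pathway genes 9 were called higher and 2 lower, or 13 and 1 with total counts. Cbr3, a carbonyl reductase, rose by a log2FC of 3.46 ± 0.25 (SE) and the cystine importer Slc7a11 by 3.19 ± 0.54 (SE). Me1 and Keap1 were called lower at -1.45 and -0.60, and Keap1 was not called with total counts (-0.09, adjusted p = 0.355).

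The supply and recycling of glutathione were described by 11 genes together, with 2 called higher and 6 lower, or 4 and 6 with total counts. The rate-limiting synthesis genes Gclc and Gclm had log2FC values of -0.08 and -0.04 and were not called, while Gclm was 0.47 and called higher with total counts. Cbs and Cth, which make cysteine from methionine, fell with log2FC values of -2.35 ± 0.18 and -1.91 ± 0.12 (SE), and Slc7a11 and Chac1 rose at 3.19 and 1.54. Of 12 genes of glutathione conjugate processing 10 were called lower and 1 higher, with TMM scaling and with total counts alike. Nat8f1 fell from 477.7 ± 96.5 to 27.2 ± 17.8 CPM and the deacylase Acy3 from 2740 ± 654.4 to 275.9 ± 61.2 CPM (SD, n = 5 per group), and Ggt7 was the member called higher (1.42, adjusted p = 0.0154). Of the 7 glutathione peroxidases 6 were tested. Gpx3 and Gpx6 had the largest falls of the 4 called lower, at -1.34 and -1.20, and Gpx7 and Gpx8 were called higher at 1.35 and 0.66.

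In a list for the sugar donor and related steps 3 of 8 genes were called higher and 4 lower, or 4 and 4 with total counts. Over all tested genes 34.2% were called higher and 31.1% lower with TMM scaling. Ugdh, which makes UDP-glucuronate, went from 135.2 ± 22.1 to 207.7 ± 16 CPM (SD, n = 5 per group; log2FC 0.62 ± 0.11, SE) and Pgm2 rose at 1.09, whereas Pgm1 and the nucleotide sugar transporter Slc35a3 fell at -1.36 and -1.17. For sulfate, 9 of the 11 listed genes were tested, with 1 called higher and 6 lower, or 2 and 3 with total counts. Papss2, which makes PAPS, fell from 404.7 ± 56.9 to 99.1 ± 31.3 CPM (SD, n = 5 per group), the sulfate transporter Slc26a1 had a log2FC of -2.52 ± 0.47 (SE), or -3.34 without puberulic acid replicate 1, and Arsa, a lysosomal sulfatase, rose at 1.16. Of 8 conjugate exporters 4 were called higher and 2 lower, or 6 and 2 with total counts. Abcc3 rose from 1.36 ± 0.384 to 24.9 ± 11.2 CPM (SD, n = 5 per group; log2FC 4.19 ± 0.40, SE) and Abcc4 at 0.86, and Abcc6 and Abcg2 fell at -3.20 and -0.99.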

How the data were processed

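For each gene the deposited table gives an estimated count, and no normalization by the authors is named in the sources used here. Per the submitters' processing notes, fastp 0.22.0, FastQC 0.12.1, MultiQC 1.28, Salmon 1.10.3, DESeq2 (no version given) and a GRCm39 build were used. No role or order is given for these, and the annotation is not given in the sources used here. Per the labels' protocols, libraries were poly(A)-selected and strand-specific. Estimated counts were rounded. Salmon divides reads shared by similar genes, so single members of close families are uncertain. Symbols came from GENCODE M21 (GRCm38), which named 51344 of 55822 identifiers. Because the builds differ, the only coordinates printed are those of the promoter windows, which are on GRCm38.p6. Columns were assigned by name: 10 were used and 10, whose names do not show the supplement lot, were not used in any step.

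Genes were kept with filterByExpr, scaled by TMM and tested with glmQLFit and glmQLFTest of edgeR 4.0.16 (limma 3.58.1, R 4.3.3) on 5 against 5 samples, adjusted over all genes tested. SE is the size of the log2 fold change over the square root of F. The script was tested on simulated data. A floor of 3 counts is 0.0964 to 0.195 CPM per library. Exact intervals are Clopper-Pearson intervals on summed counts and leave out the spread between animals. p-values measure the spread between these animals. The members and lists were chosen with earlier results of these data known.

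Named genes were every tested member of Gsto, Gstk, Gstz, Mgst and Ugt3, the 3 with the highest mean CPM of each other family, and further called members of at least 1 CPM that changed at least 4-fold without overlap, 37 in all; other members named (Gstm4, Gstm6, Gstm7, Sult1b1, Ugt1a1, Ugt1a2, Ugt1a8, Ugt2b5 and those not tested) were added after their values were seen. From each companion list the 2 called genes with the largest change in each direction were named; Gclc and Gclm fall outside this rule. A regulator that the rule names, and the promoter motif searches, are not reported here. Alternatives were RLE size factors, total counts, other filters, DESeq2 1.42.0, a robust fit, leaving out abundant genes, a replicate block, left-out animals, summed copies and a 2-fold limit. Protein sequences were not used here.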

Additional observations from a re-analysis of the deposited data

Results flagged for a closer look

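For each named member and each group of 5 animals, the distance from the highest or lowest animal to the next one was divided by the spread from lowest to highest. It was above 0.71 in 10 of 74 cases, where chance gives about 5% if values were independent, which those of related genes are not.

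In 8 of the 10 the animal was puberulic acid replicate 1, with the highest level of its group. Its level was 29.5 CPM for Gstk1 (gap 0.915 of the range), 50.2 CPM for Gstt3 (0.763), 87.1 CPM for Gstz1 (0.907), 115.5 CPM for Mgst3 (0.717), 41.3 CPM for Sult1c2 (0.844), 332 CPM for Ugt1a10 (0.825), 148.8 CPM for Ugt3a1 (0.881) and 399.4 CPM for Ugt3a2 (0.934). The same library had the highest sum of proximal tubule markers of its group, and the part of that in these values was not tested.

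Control replicate 5 was the highest control for Gsta4, at 59.9 CPM (gap 0.86), and the only control with Ugt1a9 counts, at 5.13 CPM (gap 1).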

How the results depend on the processing

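Of 836 values recomputed for single tested members, 796 kept their direction and side of the threshold, 16 lost the call, 15 gained one and 9 changed sign. With total counts the sign changed for Gsta3 (0.03), Gstm1 (0.15), Gstm4 (0.03), Gstp1 (0.36) and Sult1b1 (0.40). For Sult1b1 it also changed without control replicate 5 (0.01), and for Ugt1a1 without control replicate 1 (-0.20), control replicate 4 (-0.05) or both replicates numbered 1 (-0.19). Genes with few counts are limited by depth. RLE factors, the robust fit, the CPM filter and leaving out abundant genes moved no count over the members by more than 1.5 times. The cause of the changes below was not tested, except that summing copies leaves fewer genes and that dropping the filter or using DESeq2 tests more (59 and 53 members).

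With total counts 17 members were higher, and the median over the tested members was 0.02. Calls were then 0 lower in Gsta, 1 higher in Gstm, 1 higher and 0 lower in each of Gsto and Mgst and 2 higher in Ugt1. Of the lists, glutathione supply and recycling had 4 higher, sulfate supply 2 higher and 3 lower, and NRF2 13 higher and 1 lower. The family medians were 0.58 for Gsta, -1.69 for Gstk, -0.14 for Gstm, 0.15 for Gsto, 1.63 for Gstp and -0.37 for Gstt. They were -2.09 for Gstz, 0.37 for Mgst, -0.71 for Sult1 and 2.21 for the other Sult genes. Ugt1, Ugt2 and Ugt3 had medians of -0.50, 1.49 and -2.25.

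With no filter, and likewise with DESeq2, 1 member was higher in each of Gstm, Gstt and Mgst, 2 were higher in Sult1 and 4 were lower in Ugt2. With no filter Ugt1 had 2 higher and Gsto 0 lower. Medians with no filter and with DESeq2 were -0.37 and -0.37 over the members with a value, -0.48 and -0.49 for Gstm, 0.22 and 0.21 for Mgst, -0.66 and -0.67 for Sult1, and 0.48 and 0.30 for the other Sult genes. The Ugt2 median with DESeq2 was 0.51. Summing similar copies gave 4 higher and 15 lower, and a limit of at least 2-fold gave 14 lower.

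Leaving out 1 animal at a time gave 11 to 14 members higher, 21 to 24 lower and medians of -0.62 to -0.46. Gsta had 1 to 2 lower, with 1 without control replicate 5 or puberulic acid replicate 2, 4 or 5. Gsto had 0 to 1 lower, and 0 to 1 were higher in Gstm, Gsto, Gstt and Mgst. The Gsto median ran from -0.53 to -0.31 and that of Ugt3 from -3.40 to -2.64, both lowest without puberulic acid replicate 1. Without both replicates numbered 1, chosen after seeing the data, Gstm, Gstt and Mgst had 1 higher each.

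Replicate numbers share only a number: the correlations of same-numbered animals were -0.163 to 0.0159. With the replicate block 11 members were higher and 22 lower, Gsta had 1 lower because Gsta4 (-0.62) lost its call, and 10325 of all genes were called against 10622.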

Other observations

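Some members that were too low to be tested had counts mainly in treated animals. Gstt4, a theta transferase, had 0, 1, 0, 0 and 0 counts in controls and 7, 23, 25, 18 and 28 with puberulic acid, a scaled ratio of 65.1 (95% exact interval 11.4 to 2598, counting error only). Mgst2, a membrane-bound transferase that makes leukotriene C4, had 1, 0, 5, 2 and 0 counts in controls and 1, 22, 22, 22 and 8 with puberulic acid, a ratio of 6.05 (2.92 to 14.5), with replicate 1 at the level of the controls. Gstm3 had 3 summed control counts and 38 summed treated counts, a ratio of 8.17 (2.59 to 41.4). Sult1c1 had 0 counts in every control and 1 to 5 counts in the treated libraries. In the other direction, Ugt2a3 had 60 summed counts in controls and 30 with puberulic acid, a ratio of 0.323 (0.201 to 0.508). Of the Sult genes outside Sult1, 7 of 15 had 0 counts in all 10 libraries.

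Control replicate 5 had the lowest Ugt2b38 (621.2 CPM) and Ugt2b37 (45.6 CPM) of the controls and the highest Gsta2 (345.6 CPM), Gsta4 (59.9 CPM), Gsto1 (80.7 CPM), Ugt1a10 (159.5 CPM) and Ugt2b34 (29.6 CPM). Control replicate 1 had the highest Sult1d1 (1248 CPM), Mgst1 (115.5 CPM) and Ugt2b37 (271.6 CPM). These animals were singled out after their values were seen.

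Gm10639, which shares 43.7% of the 31-base stretches of Gsta2, went from 4.04 ± 1.78 to 7.36 ± 0.809 CPM (SD, n = 5 per group).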
